A study of Mus musculus with 25 samples.

Results

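Forkhead box (Fox) genes encode transcription factors that share a winged-helix DNA-binding domain and are named by subfamily letter. They were followed here in H3K27me3 ChIP-seq peak lists of regenerating mouse myofibers. A gene was taken as a member when its symbol in the peak lists was Fox, a letter from a to s and a number, and its peaks lay on chromosomes 1 to 19. This gave 22 Fox genes with 467 peaks, of 5470 autosomal genes with 30979 H3K27me3 peaks in all. Symbols with a suffix, such as Foxl2os, are antisense transcripts and were not members.

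Each of the 4 genotypes had 3 H3K27me3 libraries, and the study describes 3 mice per group. All mice carried the Pax7-Cre(ERT2) driver, which acts in muscle stem cells, and the mito-Dendra2 reporter, which marks the fibers they form. All received tamoxifen at 75 mg/kg on 5 days and a BaCl2 injury of the tibialis anterior, and fibers were taken at 14 days post injury. The wild-type group carried no further mutation, mfn2-/- fibers lack mitofusin 2 (needed for fusion of mitochondria), vhl-/- fibers lack the ubiquitin ligase subunit by which HIF1α is destroyed in oxygen, and HIF1dPA fibers make a stable HIF1α that this route cannot remove. The labels give no age. The Cre driver limits the mutations to the Pax7 lineage, whereas dissected muscle can hold nuclei of other cells.

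H3K27me3 is deposited by Polycomb repressive complex 2 over developmental regulators that are silent in a given cell type. Many Fox genes are of this kind, since FoxA, FoxD and FoxL proteins specify endoderm, kidney stroma and gonad. Others work in muscle or in most cells. FoxO proteins drive muscle atrophy genes, FoxK proteins regulate metabolism, and FoxM proteins act in the cell cycle.

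The lists were called per library and hold no read totals, so depth is unknown and a gene without a peak is a gene at which none was called. Autosomal lists held 3427 to 3763 peaks in wild-type, 2342 to 2574 in mfn2-/-, 3626 to 4023 in vhl-/- and 474 to 496 in HIF1dPA libraries. The HIF1dPA libraries stand apart, and every comparison with them carries this difference in list length. The mfn2-/- lists also held 1016 to 1105 peaks off the autosomes, against 5 to 13 in any other list. Over all chromosomes mfn2-/- lists averaged 3518 peaks and wild-type lists 3551, but on the autosomes 2457 and 3541. Comparisons of mfn2-/- with wild-type thus carry a difference in autosomal list length too, and its cause was not tested. Of 11 genes that define muscle fibers (such as Acta1, Ckm and Myh4), 0 had an H3K27me3 peak in any of the 12 lists. Among all autosomal protein-coding genes, 19.3% had a peak in at least 1 list. Markers of other cells were mixed within most lists. Among fibroblast markers Pdgfra had a peak in 9 lists and Col1a1 and Dcn in 0, among muscle stem cell markers Pax7 in 5, Myf5 in 1 and Myod1 in 0, and among immune markers Ptprc in 1 and Cd68 and Adgre1 in 0. The endothelial markers Pecam1, Cdh5 and Kdr and the glial marker Sox10 had a peak in 0. The part of other cells in the Fox peaks was not tested, and in whole fibers fewer nuclei with the mark cannot be told apart from less mark per nucleus.

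Of 41 autosomal protein-coding Fox genes in RefSeq, 21 (51.2%) had a peak in at least 1 list, compared with 3993 of 20661 (19.3%) of all autosomal protein-coding genes. The member left over, Foxl3, is not in the RefSeq table used. Peaks recurred between lists at many members: 10 of 22 (45.5%) had a peak in at least 9 of the 12 lists, against 8.12% of all 5470 genes. The median span of the 21 genes with a peak was 3.23 kb, and that of the 20 without a peak 27.2 kb, while all autosomal coding genes had a median of 17.5 kb. Among all genes the order was the opposite, with a median span of 34.0 kb for those with a peak.

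Peaks fell in some subfamilies and not in others. Of 19 subfamily letters, 12 had a member with a peak and 7 did not. Foxa, Foxb, Foxd and Foxe were among the letters that had a peak at every RefSeq member (Foxa1, Foxa2 and Foxa3, Foxb1 and Foxb2, Foxd1 to Foxd4, and Foxe1 and Foxe3). No list had a peak assigned to any Foxh, Foxj, Foxk, Foxm, Foxo, Foxr or Foxs gene. Other letters were mixed: Foxn4 had a peak, but Foxn1, Foxn2 and Foxn3 did not, Foxp2 did and Foxp1 and Foxp4 did not, and Foxi2 and Foxi3 did and Foxi1 did not. Of 12 Fox genes known in muscle or most cells (Foxo1, Foxo3, Foxo6, Foxk1, Foxk2, Foxj2, Foxj3, Foxp1, Foxp4, Foxn2, Foxn3 and Foxm1), 0 had a peak in any list. A peak was likewise assigned to 0 of 5 atrophy genes that FoxO proteins activate, Fbxo32, Trim63, Bnip3, Gadd45a and Eif4ebp1. Most genes lacked a peak too: 3993 of 20661 autosomal protein-coding genes (19.3%) had one. In sets this small, a count of 0 is a description.

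The gene to which the authors assigned a peak set some of these counts. When any peak within 2.5 kb of a gene's RefSeq span was counted, whatever its assigned gene, 23 of 41 Fox genes (56.1%) had a peak and 18 had none. Of the 443 peaks so found, 154 (34.8%) were assigned to another gene. Counts by position were made for Fox genes alone, so these shares have no all-gene value beside them. The 56.1% is not set against the 19.3% of all coding genes, which was by assignment. Foxf1, a regulator of lung and gut mesenchyme, had a peak in 10 lists and Foxc2, a regulator of lymphatic vessels, in 9, though neither was assigned a peak. Their peaks were assigned to Galnt2l and, at Foxf1, also to Fendrr, the long noncoding RNA beside it. Together with Foxl1, in 8 lists by position and 5 by assignment, all members of the Foxf1, Foxc2 and Foxl1 cluster on chromosome 8 carried the mark. At Foxf1, covered length by position was 2.25, 2.88 and 1.56 kb in wild-type, 1.96, 2.54 and 2.13 kb in mfn2-/-, 2.15, 5.19 and 3.69 kb in vhl-/-, and 0, 1.11 and 0 kb in HIF1dPA libraries. Wild-type, mfn2-/- and vhl-/- values overlapped there. The other cluster, Foxc1, Foxf2 and Foxq1 on chromosome 13, had peaks in 7, 6 and 9 lists by assignment and in 7, 8 and 10 by position.

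**Figure D1:**
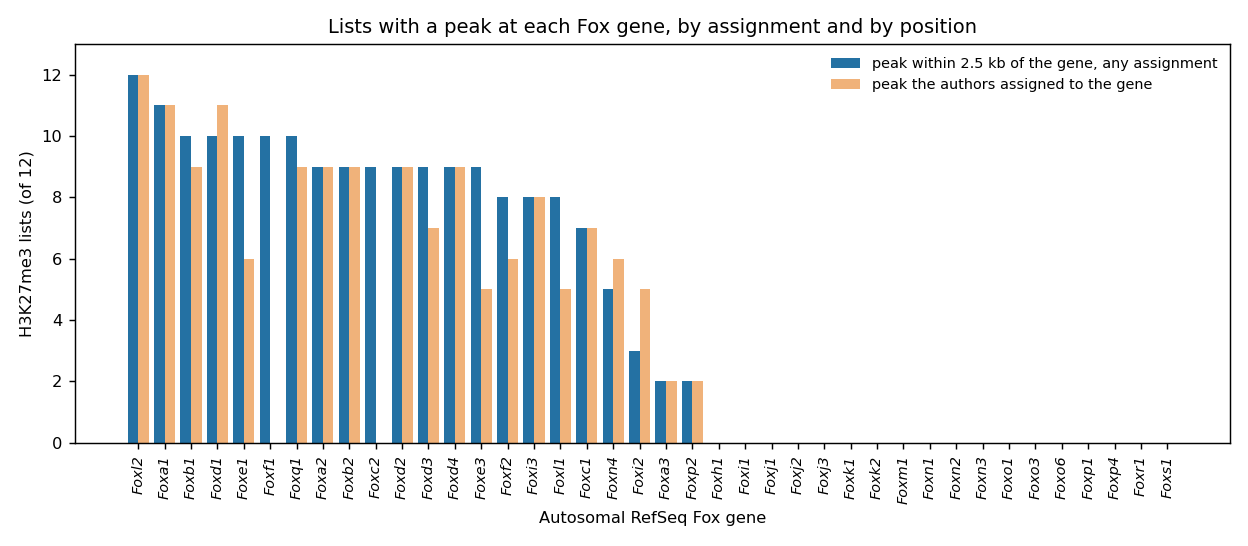
Number of the 12 H3K27me3 lists (y axis) with a peak at 40 of the 41 autosomal RefSeq Fox genes (x axis), by position within 2.5 kb (blue) and by the authors' assignment (orange). Foxf1 and Foxc2 stand at 10 and 9 by position and 0 by assignment, and the 18 genes on the right have 0 by both.

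Foxl2, the ovarian regulator, was the 1 member with a peak in all 12 lists. Its peaks covered 4.36, 5.03 and 4.79 kb in wild-type, 6.27, 3.70 and 4.25 kb in mfn2-/-, 9.13, 8.16 and 4.51 kb in vhl-/- and 1.87, 1.27 and 1.16 kb in HIF1dPA libraries. Every HIF1dPA value lay below every value of the other genotypes, which overlapped one another. Foxa1 and Foxd1 were among those that followed, in 11 lists each, and their pattern of lists was among the most like that of Foxl2, the same in 11 of 12 lists. Foxa2, Foxb1, Foxb2, Foxd2, Foxd4 and Foxq1 had peaks in 9.

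Foxd1, which marks kidney stroma, carried the most peaks, 82, spread over 37.0 kb (chr13:98341243-98378266, mm10). They covered 10.8, 10.2 and 12.7 kb in wild-type, 11.4, 11.0 and 13.3 kb in mfn2-/-, 10.3, 15.6 and 10.8 kb in vhl-/- and 1.12, 0.609 and 0 kb in HIF1dPA libraries. The first 3 genotypes overlapped, with means of 11.2 ± 1.34, 11.9 ± 1.24 and 12.2 ± 2.89 kb (SD, n = 3 each). The interval shared by the most libraries, 10 of 12, lay at chr13:98352837-98353379, from -1408 to -866 bp relative to the start site.

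The peaks at the recurrent genes were broken rather than continuous, and their reach differed. Over all libraries, 98.4% of the length assigned to Foxl2 lay downstream of the start site. The share was 74.6% at Foxd1, 64.5% at Foxa1, a pioneer factor of endoderm, and 52.7% at Foxb2. The Foxa1 start used, chr12:57546111 on the minus strand, lies within the RefSeq span of the gene, which runs to 57548029. Part of the Foxa1 length counted as upstream therefore lies within the gene. A further 6 peaks within 2.5 kb of Foxl2, at chr9:98952397-98956376, were assigned to Foxl2os and are not in its share. They reach upstream of the Foxl2 start site, so the assignment sets part of this one-sidedness. At Foxl2 the interval shared by most libraries, 10 of 12, was chr9:98958542-98958684. At Foxa1 it was chr12:57544571-57545142, in 9 of 12, and at Foxb2 chr19:16871403-16871680, in 7 of 12. Foxb2 spread over 48.3 kb, but just 1.69 kb of it was in at least 6 libraries, whereas at Foxd1 10.1 kb was. Of the 467 Fox peaks, 52.0% had a promoter class (within 3 kb of a start) and 44.1% were distal intergenic, compared with 50.4% and 31.4% of all autosomal peaks.

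**Figure D2:**
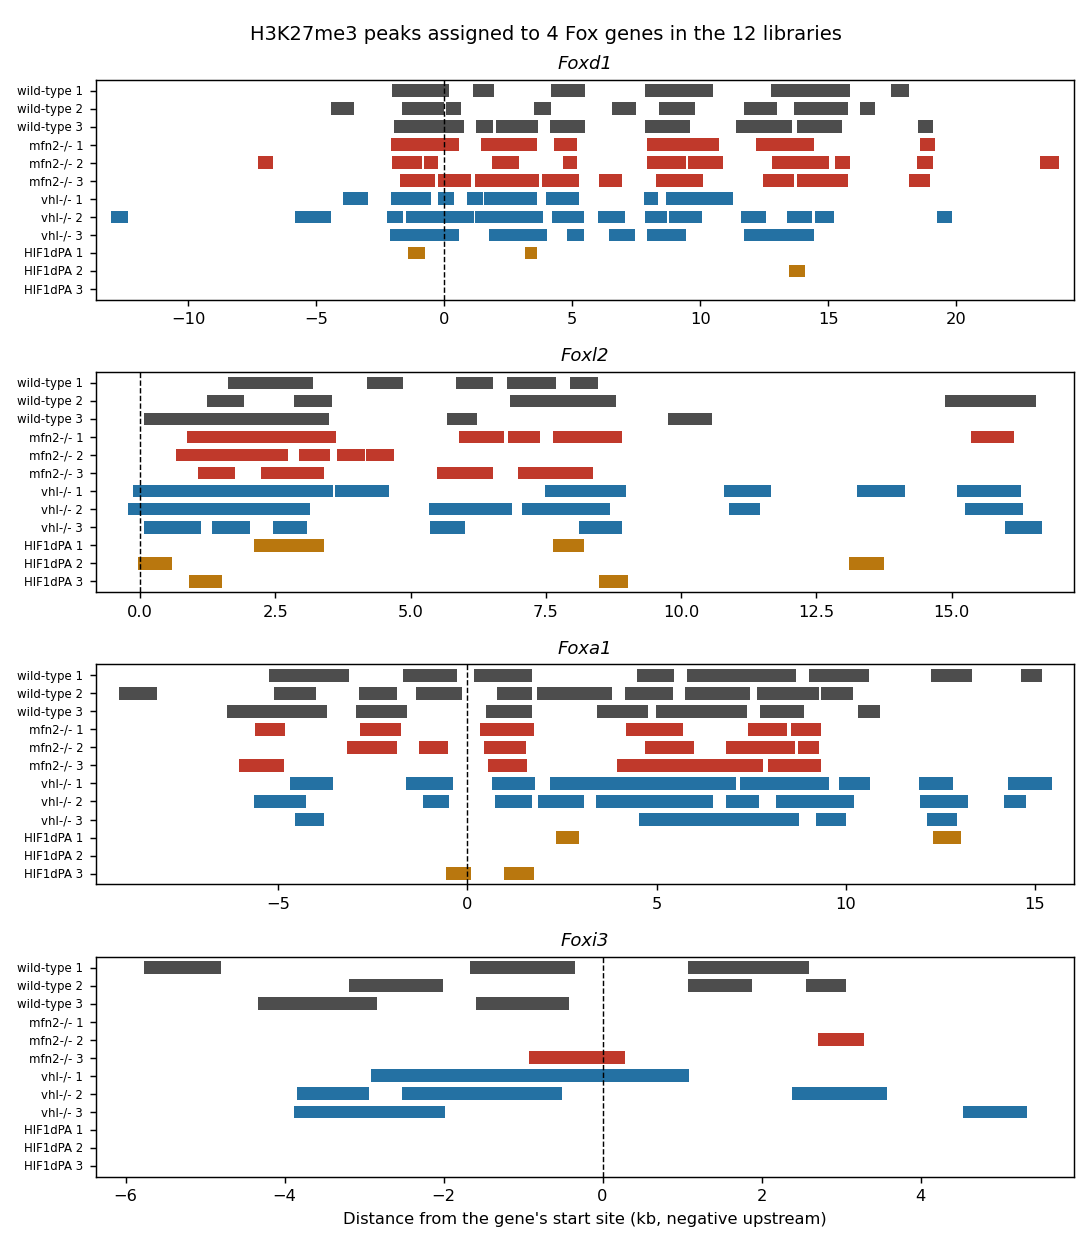
H3K27me3 peaks (bars) assigned to Foxd1, Foxl2, Foxa1 and Foxi3 in each of the 12 libraries (rows, colored by genotype) by distance from the start site in kb (x axis, dashed line at 0). Peaks assigned to Foxl2 lie almost entirely downstream (those assigned to Foxl2os are not drawn). The start drawn for Foxa1 lies within its RefSeq span. HIF1dPA rows hold few peaks, and Foxi3 has no peak in mfn2-/- replicate 1 or any HIF1dPA library.

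Fox peaks were then ranked by score within their lists. The median percentile of the score, 10 times the negative log10 of the caller's p-value, was 69.8 over the 467 peaks, where 50.0 is the median of all peaks, and 23.6% of Fox peaks were among the top 10% of their list. Among the members in at least 3 lists, the mean percentile of the best peak, over the lists that have one, was highest at Foxa1 (96.9), Foxd1 (93.8), Foxd3, a neural crest factor (92.5), Foxd4 (92.2) and Foxb2 (91.3), with Foxl2 at 88.4. The order below Foxa1 and Foxd1 depended on the HIF1dPA lists, which hold 3 of the Foxl2 values, 1 of Foxd3 and 0 of Foxd4 and Foxb2. Without them, a choice made after seeing the data, the means were 98.8 at Foxa1, 98.2 at Foxd1, 93.8 at Foxl2, 92.2 at both Foxd4 and Foxd3, and 91.3 at Foxb2. Foxa3, Foxp2 and Foxl3, in 2, 2 and 1 lists, ranked low, with means of 16.0, 36.0 and 24.5. The strongest Fox peak by score was at Foxl2 in vhl-/- replicate 1, where it was the 7th of the 3873 autosomal peaks. The median Fox percentile of a library averaged 75.8 ± 5.44 over wild-type, 65.8 ± 13.2 over mfn2-/-, 68.0 ± 2.96 over vhl-/- and 54.7 ± 8.93 over HIF1dPA libraries (SD, n = 3 each), and every wild-type value (lowest 70.5) lay above every vhl-/- value (highest 70.0), while the mfn2-/- values (50.5 to 73.8) overlapped those of each other genotype.

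CG-rich sequence lay upstream of Fox genes with a peak and of Fox genes without. RefSeq promoter sequences (GRCm38.p6, the assembly of mm10) matched 26 Fox genes, 15 with an assigned peak and 11 without. Those of 4 are shown as the 250 bases before the start, 5′ to 3′ on the gene's strand, with CG dinucleotides in capitals: Foxl2 (chr9:98955357-98955606, plus strand) and Foxd1 (chr13:98353995-98354244, plus strand) had recurrent peaks, Foxo1 (chr3:52268087-52268336, plus strand) had a like number of CG and no peak, and Foxi1 (chr11:34208090-34208339, minus strand) had few CG and no peak.
Foxl2: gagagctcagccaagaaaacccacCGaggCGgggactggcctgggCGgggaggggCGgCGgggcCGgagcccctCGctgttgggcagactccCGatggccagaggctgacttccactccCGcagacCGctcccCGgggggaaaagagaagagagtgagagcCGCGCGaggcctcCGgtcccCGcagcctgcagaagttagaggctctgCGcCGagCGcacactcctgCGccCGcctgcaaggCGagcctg
Foxd1: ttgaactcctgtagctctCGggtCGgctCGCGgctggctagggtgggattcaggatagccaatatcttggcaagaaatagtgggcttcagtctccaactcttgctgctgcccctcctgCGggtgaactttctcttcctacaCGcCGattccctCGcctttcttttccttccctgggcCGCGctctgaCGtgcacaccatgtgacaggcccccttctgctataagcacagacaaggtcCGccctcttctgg
Foxo1: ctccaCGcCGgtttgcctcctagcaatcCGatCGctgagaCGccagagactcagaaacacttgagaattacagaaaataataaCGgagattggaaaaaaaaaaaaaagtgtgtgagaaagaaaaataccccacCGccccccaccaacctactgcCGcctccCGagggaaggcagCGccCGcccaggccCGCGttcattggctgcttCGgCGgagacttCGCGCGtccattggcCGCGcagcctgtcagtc
Foxi1: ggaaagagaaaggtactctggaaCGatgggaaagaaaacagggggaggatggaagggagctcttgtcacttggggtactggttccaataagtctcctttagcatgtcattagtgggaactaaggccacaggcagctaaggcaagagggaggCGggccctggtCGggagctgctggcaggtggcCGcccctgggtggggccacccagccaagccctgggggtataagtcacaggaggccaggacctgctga
These windows hold 22, 12, 20 and 4 CG, in that order. A peak overlapped the Foxl2 window in 7 lists and the Foxd1 window in 9, and those of Foxo1 and Foxi1 in 0.

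Across the 15 promoters with a peak the median was 17 CG (range 3 to 29), and across the 11 without it was 20 (range 4 to 48), compared with 6 over all 31396 autosomal promoters. A count of at least 10 was met by 73.3% of the first, 72.7% of the second and 38.3% of all promoters. The mark lay over this window in at least 3 lists at 5 of the 26 Fox promoters (19.2%), those of Foxl2, Foxd1, Foxa2, Foxb2 and Foxd4, and at 1.27% of all promoters. All 5 are among the 15 genes chosen for an assigned peak, so the share within the 15 is not set against that of all promoters. The 26 Fox promoters are 1 per gene, whereas the set of all promoters can hold several per gene (30 Fox windows), so the Fox and all-promoter shares have unlike units. At Foxc1, Foxd3 and Foxf2, with 29, 21 and 21 CG, the window was covered in 0 lists, and the peaks lay elsewhere at the gene. A CG count is a description of the letters in this window.

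**Figure D3:**
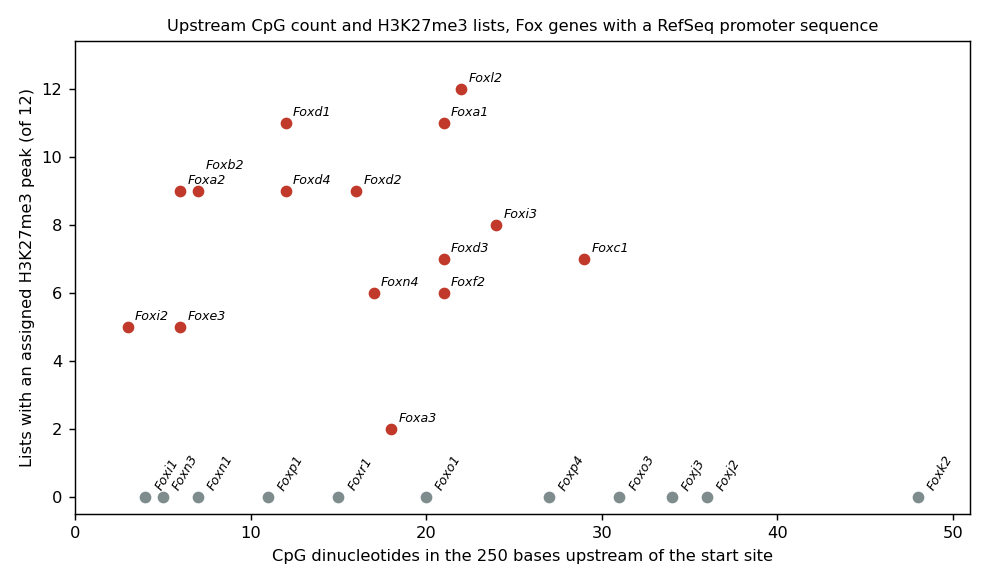
CG dinucleotides in the 250 bases upstream of the start (x axis) and number of lists with an assigned H3K27me3 peak (y axis, of 12) for the 26 Fox genes with a RefSeq promoter sequence. Genes with a peak (red) range from 3 to 29 CG and genes without (grey) from 4 to 48.

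To examine whether the mark at Fox genes changed with genotype, libraries were compared by the number of Fox genes with a peak. Wild-type lists had 14, 13 and 18 Fox genes, mfn2-/- lists 15, 16 and 14, vhl-/- lists 19, 19 and 16, and HIF1dPA lists 6, 5 and 4. The means were 15.0 ± 2.65, 15.0 ± 1.00, 18 ± 1.73 and 5.00 ± 1.00 (SD, n = 3 each). The HIF1dPA values lay below all others, and the other genotypes overlapped. With the 474 strongest autosomal peaks of each library, the means were 7.67 ± 3.06, 8.0 ± 2.00, 8.0 ± 2.65 and 5.00 ± 1.00. At that list length the HIF1dPA values (6, 5 and 4) overlapped those of wild-type (5, 7 and 11), mfn2-/- (10, 6 and 8) and vhl-/- (10, 9 and 5) libraries. The covered length of all Fox peaks was 57.9 ± 7.65 kb in wild-type, 46.7 ± 5.17 kb in mfn2-/-, 69.8 ± 15.8 kb in vhl-/-, and 5.04 ± 1.57 kb in HIF1dPA libraries.

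Relative to all autosomal genes with a peak, the Fox share was 0.690%, 0.685% and 0.963% in wild-type, 1.15%, 1.30% and 1.02% in mfn2-/-, 0.961%, 0.923% and 0.852% in vhl-/-, and 1.42%, 1.18% and 0.928% in HIF1dPA lists. All mfn2-/- values lay above all wild-type values. The lists of mfn2-/- held fewer autosomal genes (1304 ± 70.0, against 1932 ± 84.3 in wild-type), while the number of Fox genes was the same on average. This was not particular to Fox: the Hox share was 1.28 ± 0.0521% in mfn2-/- and 0.760 ± 0.0270% in wild-type, and the Sox share 0.437 ± 0.0643% and 0.346 ± 0.0665% (SD, n = 3 each).

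**Figure D4:**
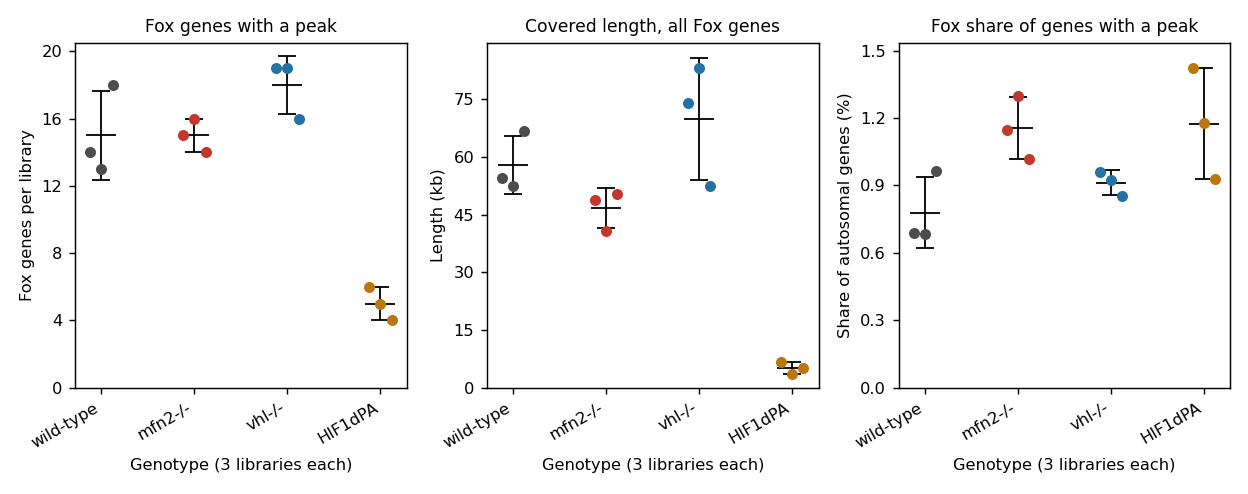
Fox genes with a peak (left), length covered by Fox peaks in kb (middle) and Fox share of autosomal genes with a peak in % (right) for each genotype. Points are libraries and bars the mean ± SD of 3. With the full lists drawn here, HIF1dPA lies lowest in number (4 to 6 genes) but not in share.

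Between wild-type and mfn2-/-, most Fox genes had peaks in both. Of 18 Fox genes with a peak in at least 3 of the 6 lists, 2 had a peak in all 3 wild-type lists and no mfn2-/- list, Foxe1 and Foxn4 (11.1%), near the background of 6.79% of 1355 genes. The reverse pattern was met by 0 of 18, with a background of 0.664%. Foxn4, a retinal and spinal cord factor, had 1.98, 1.06 and 2.06 kb in wild-type, 0 kb in all mfn2-/-, 2.75, 1.02 and 0.676 kb in vhl-/- and 0 kb in all HIF1dPA libraries. By position Foxn4 kept this pattern, with 0 mfn2-/- lists. Foxe1, the thyroid factor, did not: by assignment it had 0.641, 0.950 and 2.08 kb in wild-type and 0 kb in mfn2-/-, but by position all 3 mfn2-/- libraries had peaks there, of 2.11, 2.31 and 4.31 kb, assigned to Gm12446. With either a score of at least 100 or equal list length, 0 Fox genes met the wild-type-only pattern.

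Covered length separated the same pair of genotypes at a few more genes. Wild-type lay above mfn2-/- without overlap at 4 of 18 Fox genes (22.2%; background 17.9%), Foxa1, Foxe1, Foxi3 and Foxn4, and below it at 1 (5.56%; background 2.29%), Foxb1. Foxa1 had 12.2, 12.8 and 10.7 kb in wild-type, 6.64, 6.86 and 7.47 kb in mfn2-/-, 13.7, 12.1 and 6.57 kb in vhl-/-, and 1.39, 0 and 1.45 kb in HIF1dPA libraries. The mfn2-/- values are tight and low, the vhl-/- values reach both ends, and by position wild-type and mfn2-/- remained apart at Foxa1. Foxi3, which acts in ectodermal organs, had 3.81, 2.51 and 2.66 kb in wild-type, 0, 0.587 and 1.21 kb in mfn2-/-, 4.00, 4.11 and 2.71 kb in vhl-/- and 0 kb in all HIF1dPA libraries. By position, without its peaks farther than 2.5 kb, wild-type Foxi3 values were 2.85, 2.51 and 1.17 kb, and the last fell below the highest mfn2-/- value of 1.21 kb. Over the 18 genes the median difference of mfn2-/- from wild-type was -0.20 kb, with 10 lower (55.6%), compared with -0.40 kb and 73.7% lower over all 1355 genes. With 3 libraries against 3, an exact permutation test cannot give a p below 0.1.

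Between wild-type and vhl-/-, 0 of 18 Fox genes were in all lists of the first and none of the second (background 1.41%), and 0 showed the reverse (background 2.08%). Covered length was higher in vhl-/- without overlap at 1 of 18 (5.56%; background 8.38%), Foxb1, and lower at 0 (background 3.2%). Foxb1, a hypothalamic factor, had 2.01, 1.56 and 1.51 kb in wild-type, 2.06, 3.57 and 3.04 kb in mfn2-/-, 4.60, 4.90 and 2.20 kb in vhl-/- and 0 kb in all HIF1dPA libraries. The smallest mfn2-/- value was 2.06 kb and the largest wild-type value 2.01 kb. By position, where 14 peaks assigned to B230323A14Rik are added, mfn2-/- and wild-type overlapped at Foxb1 and vhl-/- stayed above wild-type. HIF1dPA replicate 1 then had 0.555 kb. The median difference of vhl-/- from wild-type was 0.53 kb over the 18 Fox genes, with 13 higher, and 0.19 kb over all 1779 genes.

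By assignment, HIF1dPA lists held peaks at 9 Fox genes, in all 3 lists at Foxl2, in 2 at genes that include Foxa1, Foxd1 and Foxq1, and in 1 at Foxd2, Foxd3, Foxe1 and Foxl1. Foxl1 had no assigned peak in any wild-type list, but by position wild-type replicate 1 had 1.105 kb there. Of 13 Fox genes with a peak in at least 3 of the 6 wild-type and HIF1dPA lists, 6 (46.2%) were in all wild-type lists and no HIF1dPA list, near the background of 42.1% of 920 genes. They were Foxa2, Foxb1, Foxb2, Foxd4, Foxi3 and Foxn4. By position, Foxb1 had 0.555 kb in HIF1dPA replicate 1 and left this set. The 7 genes in it were then Foxa2, Foxb2, Foxc2, Foxd4, Foxe3, Foxi3 and Foxn4, a count for which no all-gene background by position was made. By assignment, the reverse was met by 0 (background 0.109%). Covered length lay lower in HIF1dPA without overlap at 10 of 13 (76.9%; background 75.1%) and higher at 0 (background 0.217%). Of the 8 Fox genes with a peak in all 9 lists of the other genotypes, 4 (50.0%) had one in any HIF1dPA list, against 260 of 366 genes (71.0%) at large. The direction depended on this cutoff. With a peak in at least 6 of the 9 lists it was 7 of 15 Fox genes (46.7%), against 433 of 947 (45.7%). With a peak in at least 1 it was 9 of 22 (40.9%), against 803 of 5225 (15.4%).

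The Fox peaks that HIF1dPA lists held did not coincide. The share of base pairs common to a pair of lists over those in either (Jaccard index) was 0 for each of the 3 HIF1dPA pairs over Fox peaks, and 0.0365 to 0.0477 over all autosomal peaks. With 9, 6 and 7 Fox peaks in the HIF1dPA lists, their value of 0 lies near that background. Within wild-type the Fox value was 0.228 to 0.282, within mfn2-/- 0.259 to 0.421 and within vhl-/- 0.274 to 0.385. Over all autosomal peaks the values were 0.149 to 0.156, 0.163 to 0.175 and 0.187 to 0.196, in that order. At Foxl2 the strongest HIF1dPA peaks were chr9:98957714-98959015 in replicate 1 (13th in its list), chr9:98968715-98969363 in replicate 2 (100th) and chr9:98956502-98957128 in replicate 3 (301st). Foxd3 had HIF1dPA peaks in replicate 3 alone, the stronger at chr4:99658608-99659865 (rank 29 of 496) and the other at chr4:99656874-99657421 (rank 274).

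**Figure D5:**
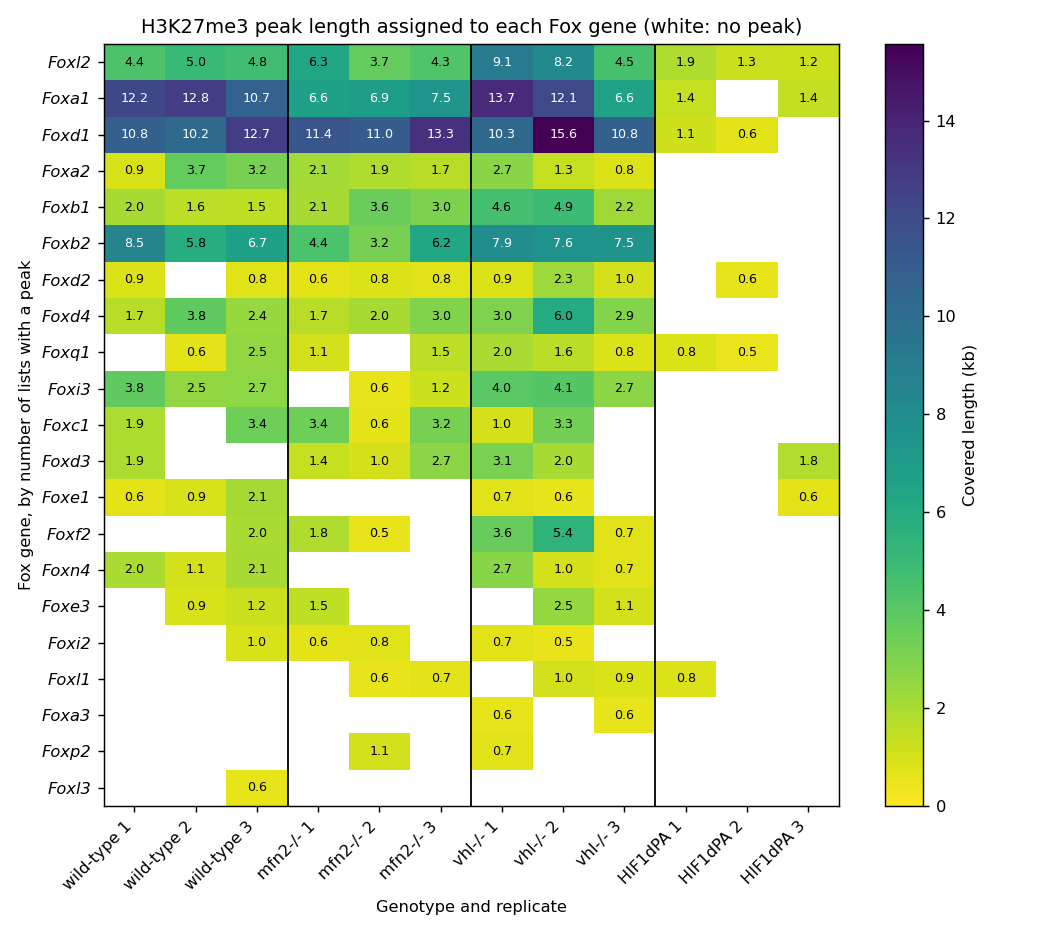
Length in kb covered by H3K27me3 peaks assigned to 21 of the 22 Fox genes (rows, by number of lists) in the 12 libraries (columns). White cells have no peak; Foxl2 is filled in all 12 and Foxb1, Foxb2, Foxd4, Foxa2, Foxi3 and Foxn4 are among those empty in HIF1dPA.

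A test across the 4 genotypes was made for each gene with a peak in at least 3 of the 12 lists (exact permutation test of covered length over libraries, 15400 arrangements, smallest p 6.49e-05, Benjamini-Hochberg adjustment over 2184 genes). Of the 19 Fox genes that entered, 2 had an adjusted p under 0.05, compared with 2.75% of all genes, and 11 had an unadjusted p under 0.05, compared with 27.2%. The members that entered recur more than most genes, so their share is a description. Foxi3 had an exact permutation p of 0.000909 (adjusted 0.0462) and Foxb2, a neural factor, 0.0011 (adjusted 0.0496). Foxb2 had 8.48, 5.85 and 6.66 kb in wild-type, 4.39, 3.19 and 6.22 kb in mfn2-/-, 7.95, 7.55 and 7.53 kb in vhl-/- and 0 kb in all HIF1dPA libraries. By assignment both genes thus had long coverage in wild-type and vhl-/-, less on average in mfn2-/- and none in HIF1dPA. By position, without its distal peaks, Foxb2 had 5.39, 2.37 and 5.43 kb in wild-type, 1.19, 1.88 and 1.45 kb in mfn2-/-, and 2.02, 2.09 and 3.35 kb in vhl-/- libraries, so that 2 of 3 vhl-/- values lay below every wild-type value, as did all mfn2-/- values. Both calls lie close to the threshold: under other settings the adjusted permutation p ranged from 0.0365 to 0.423 at Foxi3 and from 0.0365 to 0.538 at Foxb2, and with the replicate number as a block 0 of 19 passed, each gene at 0.167. When 1 library at a time was left out, both calls held without wild-type replicate 1, mfn2-/- replicate 3 or vhl-/- replicate 3, Foxb2 also held without wild-type replicate 2, and neither held without any of the other libraries (adjusted permutation p 0.0836 at most for Foxi3 and 0.0768 for Foxb2, both without a HIF1dPA library).

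The next genes by exact permutation p, none past adjustment, were Foxb1 (p = 0.00214, adjusted 0.052), Foxa1 (0.00318, adjusted 0.0584), Foxd4 (0.00526, adjusted 0.0684), Foxl2 (0.00597, adjusted 0.0733) and Foxd1 (0.0153, adjusted 0.101). Foxn4 (0.0227), Foxd2 (0.0277) and Foxe1 (0.0338) followed. Foxd4 had 1.69, 3.78 and 2.42 kb in wild-type, 1.70, 2.03 and 2.97 kb in mfn2-/-, 2.99, 6.01 and 2.87 kb in vhl-/- and 0 kb in all HIF1dPA libraries, so that the 3 genotypes with peaks overlapped. Foxd2, a mesenchymal factor, covered at most 2.31 kb in any library. When HIF1dPA was left out, Foxi3 (exact permutation p = 0.00714) and Foxe1 (0.0286) of the 19 Fox genes had an unadjusted p under 0.05, against 9.83% of 2086 genes, and 0 genes of any kind passed adjustment (smallest adjusted exact permutation p 0.423), where 205 had an unadjusted p under 0.05.

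The covered length of further members varied widely within genotypes. Foxc1, a mesoderm factor, covered 1.94, 0 and 3.44 kb in wild-type, 3.43, 0.633 and 3.17 kb in mfn2-/-, and 1.02, 3.26 and 0 kb in vhl-/- libraries. Foxf2 reached 5.44 kb in vhl-/- replicate 2 and had no assigned peak in 2 of 3 wild-type libraries. By position, wild-type replicates 1, 2 and 3 had 1.46, 0 and 1.37 kb at Foxf2. For Foxc1, Foxd3, Foxe3, Foxi2, Foxl1 and Foxq1 the exact permutation p across genotypes ranged from 0.266 to 0.564.

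H3K9me3, the mark of constitutive heterochromatin, gave few peaks at Fox genes. The 12 H3K9me3 lists held 9 Fox peaks among 17669 autosomal peaks, among them peaks at Foxk2, Foxn3, Foxo1, Foxp1 and Foxp2. They fell in 7 libraries, and no position recurred. Foxp2 also had an H3K27me3 peak in some list. Foxk2, Foxn3, Foxo1 and Foxp1 belong to the Fox genes of muscle or most cells that had no H3K27me3 peak. Their H3K9me3 peaks were all distal intergenic by class.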

How the data were processed

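ChIP-seq peak lists of H3K27me3 and H3K9me3 in regenerating myofibers were used, 12 of each mark. The authors deposited 1 annotated list per library, called without pooling. The submitters' processing notes name BWA 0.7.5, MACS, deepTools 3.5.0 and mm10, and further settings are not given in the sources used here. Each deposited row gives a peak's start and end, gene, class and score, the score being -log10(p) multiplied by 10, with a minimum of 50. The score was used only to rank or filter within a list. Unnamed rows (3, 0.00968%) stayed out. The input library was not analysed here.

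Covered length per gene was the sum of its assigned peaks. Genotypes follow the labels. The exact permutation test used all 15400 arrangements. Members, lists and tests were chosen with earlier results of these data known. Genes were named if present in at least 9 lists, in any HIF1dPA list, separated completely, among the 5 highest score percentiles or 10 smallest p, or on fixed lists of cluster, muscle and FoxO target genes; Foxa3, Foxp2, Foxl3, Foxi2, Foxe3 and the genes found by position were described beside them. Alternatives were a score of at least 100, 474 peaks per library, promoter classes only, no distal intergenic peaks, presence or absence, log2(bp + 100), no filter on low values, a replicate block, 3 genotypes, suffixed symbols, and leaving out each library. Counting peaks within 2500 bp of a gene was added after seeing the data. The test was checked on simulated data. Computation used numpy 2.4.6 and pandas 2.3.3 (Python 3.11.15), and matplotlib 3.10.9 drew the plots. Values of 1 Fox gene and 2 marker genes are not reported here.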

Additional observations from a re-analysis of the deposited data

Results flagged for a closer look

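At Foxb1, covered length differed from wild-type in opposite directions among the mutants. It was 1.19 kb higher on average in mfn2-/- and 2.20 kb higher in vhl-/- libraries, with every value above every wild-type value, while all HIF1dPA libraries had 0 kb, a difference of -1.70 kb (n = 3 each). The difference between these effects was not tested. HIF1dPA lay lower than wild-type on average at 97.9% of 920 genes, so the HIF1dPA difference was not particular to Foxb1. Without overlap, mfn2-/- lay above wild-type at 2.29% of 1355 genes and vhl-/- at 8.38% of 1779. The lowest mfn2-/- value at Foxb1 was 2.06 kb and the highest wild-type value 2.01 kb. By position, mfn2-/- and wild-type overlapped, and HIF1dPA replicate 1 had 0.555 kb.

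Foxr2, on the X chromosome and outside the autosomal set, had an H3K27me3 peak in 3 of 3 mfn2-/- lists and in 0 lists of any other genotype. The same held for 187 of 619 X chromosome genes with a peak in any list (30.2%), and the mfn2-/- lists held 1016 to 1105 peaks off the autosomes against 5 to 13 in any other list.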

How the results depend on the processing

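Depth is unknown and limits every count here. Under a score of at least 100, Fox genes per library averaged 9.67 (wild-type), 8 (mfn2-/-), 8.67 (vhl-/-) and 0.333 (HIF1dPA), and their share of genes with a peak 2.46%, 2.82%, 1.69% and 2.08%. The median score percentile of Fox peaks was then 53.2 (wild-type), 60.5 (vhl-/-) and 25 (HIF1dPA), the promoter share 59.3% in vhl-/- and 100% in HIF1dPA (1 library with a Fox peak), 0 Fox genes were wild-type only against mfn2-/-, and 4 had an unadjusted and 1 an adjusted p under 0.05. Over all genes, 10 were wild-type only, and 153 of 491 had an unadjusted and 45 an adjusted exact permutation p under 0.05. With the 474 strongest peaks per library, Fox genes averaged 7.67 in wild-type, 8 in mfn2-/- and 8 in vhl-/-. Shares averaged 2.33%, 2.67% and 2.47% in these, and 1.20% in HIF1dPA, the lowest. Percentiles averaged 62.5 in wild-type and 54.8 in vhl-/-, and the vhl-/- promoter share 62.6%. Then 0 Fox genes were wild-type only against mfn2-/- and 1 against HIF1dPA, 4 had an unadjusted p under 0.05, and 0 an adjusted one. Over all genes, 4 and 28 were wild-type only, and 98 of 449 had an unadjusted and 1 an adjusted exact permutation p under 0.05. With promoter classes only, mfn2-/- lists averaged 14 Fox genes, the shares, by genotype in the same order, were 1.26%, 1.66%, 1.29% and 2.55%, the HIF1dPA percentile was 41.1, and 0 Fox genes passed adjustment (19 of all 1417 genes). Without distal intergenic peaks the shares were 1.03%, 1.45%, 1.16% and 1.74%, and 1 Fox gene passed (47 of all 1690 genes). Counting suffixed symbols gave 17 genes in mfn2-/- and 20 in vhl-/- lists.

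By presence or absence of a peak, 5 Fox genes had an unadjusted exact permutation p under 0.05 and 0 an adjusted one (271 and 0 of all 2184 genes). With log2(bp + 100), 4 Fox genes passed adjustment, as did 154 of all 2184 genes. With no filter on low values, 0 Fox genes and 0 genes of any kind passed. Without HIF1dPA, 2 Fox genes had an unadjusted and 0 an adjusted p under 0.05 (205 and 0 of all 2086 genes). With the replicate block, 7 Fox genes had an unadjusted p under 0.05 and 0 passed adjustment (448 and 0 of all 2184 genes). The labels do not say that equal replicate numbers share an animal, and deviations of same-numbered libraries correlated from -0.052 to 0.070 over 18 pairs, so the numbers were not taken to pair libraries. Leaving out 1 library gave 0 to 5 Fox genes past adjustment, the most without vhl-/- replicate 3. Of all genes, 114 of 1982 passed without vhl-/- replicate 3, and 0 without mfn2-/- replicate 1 or without any HIF1dPA library. Leaving out 1 library also gave 0 to 1 mfn2-/- only Fox genes, 1 of them without wild-type replicate 1 or without mfn2-/- replicate 1. It gave 0 to 1 vhl-/- only Fox genes, 1 of them without wild-type replicate 3, vhl-/- replicate 1 or vhl-/- replicate 2. Over all genes these counts were 14 to 34 and 60 to 108. By position, Fox genes averaged 18.3 in wild-type, 19 in mfn2-/- and 20.7 in vhl-/- lists, and 1 Fox gene was wild-type only against mfn2-/- (not counted over all genes). The cause of these changes was not tested. Of 216 values computed under alternatives, 146 stayed within the limits set for a change.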

Other observations

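The antisense transcripts Foxd2os and Foxl2os each had an H3K27me3 peak in 9 lists, all 3 of wild-type, mfn2-/- and vhl-/- and 0 of HIF1dPA. The peaks of Foxd2os include 10 within 2.5 kb of Foxe3, a lens factor that had assigned peaks in 5 lists and peaks by position in 9.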
